A study of Mus musculus with 6 samples.

Results

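The interferon-stimulated and antigen presentation genes described here are a list of 43 mouse genes: interferon receptors, sensors of viral RNA, the transcription factors of the pathway, the antiviral proteins they induce, and the proteins that cut, carry and load peptides for MHC class I. A gene was measured where the array's annotation gives it a probe set (a group of probes read as 1 value) with exactly 1 gene symbol, and the brightest such probe set stood for the gene. This held for 39 of the 43 genes, among 22180 genes measured in all. Oas1a, Dtx3l and Gbp2 share their probe sets with another gene, and Ifi44 was not matched to a probe set. Of the 39 genes, 37 passed a filter that left out the 40% of all genes with the lowest mean over the arrays (log2 5.37 or less), so that 37 of 13308 genes tested were members. Mx1 and Tap2 lay below the filter; the wild-type arrays had Mx1, an antiviral GTPase, at 4.27 ± 0.069 (SD, n = 3), and the T173I arrays had it at 4.23 ± 0.18 (SD, n = 3).

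The cells were mouse inner medullary collecting duct (IMCD) cells, an epithelial model of the last part of the kidney's collecting duct, transduced with a lentivirus that carries GFP and ILK in 1 vector. ILK, integrin-linked kinase, is a scaffold protein of focal adhesions. A group of 3 arrays came from cells with wild type ILK and a group of 3 from cells with the missense variant ILK-T173I. All 6 samples carried a lentiviral ILK vector, EGF was given to all of them (20 ng/ml, 15 minutes), and all were harvested after 1 further hour, so neither the vector nor EGF differs between the groups and neither can be read from them. The labels call the arrays of a group biological replicates. The sources used here do not say how many stable lines each group holds, so that line and variant cannot be told apart, and the p-values measure the spread between these arrays.

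Interferons are secreted proteins that warn cells of infection. Type I interferons bind the receptor of Ifnar1 and Ifnar2, whose kinases activate transcription factors, Stat2 and its partner Irf9 among them, that bind the interferon-stimulated response element (ISRE) in the promoters of target genes. Interferon gamma acts on another element, GAS, and through Irf1, and raises the MHC class I pathway in particular. Epithelial cells express many of these genes at a low level without infection and, in kidney tubules, use them as part of their own defence.

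The promoters show which of these elements the members hold near their start. RefSeq promoter windows of assembly GRCm38.p6, from 250 bases before to 50 after a gene's start, were found for 35 of the 43 members. The ISRE was searched as GAAA, any 2 bases and GAAA again, and GAS as TTCNNNGAA, on both strands, and overlapping matches were kept. At least 1 ISRE match was found in 14 of the 35 members (40%), against 3.99% of all 27025 genes with a window, and at least 1 GAS match in 11 (31.4%), against 9.55%. Letters that match are a description of the window and not a measured binding site. The stretches below are the 160 bases before the start, 5′ to 3′ on the gene's strand, with ISRE and GAS matches in capitals. Gbp3, Irf1 and Isg20 have several starts with a window each. Their stretch is from the window that holds a match, and their other windows held none. Ifit1, Ifit3, Gbp3 and Gbp7 are shown because they hold an ISRE and had lower signal in T173I, Irf1 because it holds a GAS match, and Isg15, Bst2 and Isg20 because they hold these elements and did not have lower signal.
Ifit1, chr19:34640729-34640888, plus strand: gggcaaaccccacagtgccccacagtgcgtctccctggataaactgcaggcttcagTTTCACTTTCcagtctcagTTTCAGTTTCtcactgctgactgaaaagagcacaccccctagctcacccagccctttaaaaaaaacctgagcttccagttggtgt
Ifit3, chr19:34583369-34583528, plus strand: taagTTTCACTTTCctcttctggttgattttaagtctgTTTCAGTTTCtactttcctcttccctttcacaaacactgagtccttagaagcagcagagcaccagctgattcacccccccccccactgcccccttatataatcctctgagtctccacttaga
Gbp3, chr3:142559884-142560043, plus strand: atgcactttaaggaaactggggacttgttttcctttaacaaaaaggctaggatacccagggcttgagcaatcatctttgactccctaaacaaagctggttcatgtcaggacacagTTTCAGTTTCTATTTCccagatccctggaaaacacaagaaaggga
Gbp7, chr3:142530176-142530335, plus strand: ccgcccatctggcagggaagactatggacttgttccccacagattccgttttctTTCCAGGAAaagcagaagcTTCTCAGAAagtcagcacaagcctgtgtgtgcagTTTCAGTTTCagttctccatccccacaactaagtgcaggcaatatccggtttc
Irf1, chr11:53769854-53770013, plus strand: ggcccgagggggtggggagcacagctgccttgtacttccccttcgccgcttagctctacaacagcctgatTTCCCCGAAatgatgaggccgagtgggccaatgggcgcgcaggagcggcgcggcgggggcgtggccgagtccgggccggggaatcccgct
Isg15, chr4:156200819-156200978, minus strand: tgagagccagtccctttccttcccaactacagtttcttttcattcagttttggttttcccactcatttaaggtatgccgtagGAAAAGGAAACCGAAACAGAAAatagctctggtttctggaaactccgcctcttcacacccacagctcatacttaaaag
Bst2, chr8:71537473-71537632, minus strand: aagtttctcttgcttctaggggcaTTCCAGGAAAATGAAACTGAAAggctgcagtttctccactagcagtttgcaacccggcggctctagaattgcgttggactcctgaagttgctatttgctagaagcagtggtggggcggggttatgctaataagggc
Isg20, chr7:78913264-78913423, plus strand: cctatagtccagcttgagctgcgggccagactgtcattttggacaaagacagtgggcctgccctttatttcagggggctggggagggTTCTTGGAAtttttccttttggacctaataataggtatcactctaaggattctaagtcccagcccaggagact
The ISRE matches of Ifit1 begin at -104 and -85 from the start, and those of Ifit3 at -156 and -122. Gbp7 has 1 ISRE at -53 and GAS matches at -106 and -87, and the ISRE matches of Gbp3 overlap at -45 and -39. Isg15 has 3 overlapping ISRE matches at -78, -72 and -66.

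The T173I arrays were less alike than the wild-type arrays over all tested genes, with correlations of 0.964 to 0.983 within T173I and 0.989 to 0.993 within wild type. T173I replicate 2 stands furthest from the wild-type arrays (0.959 to 0.967) and lies closest to T173I replicate 3 (0.983). The median signal of an array ran from 5.45 to 5.52. T173I replicate 1 correlated at 0.985 to 0.991 with the wild-type arrays and at 0.964 and 0.981 with its own group. For some members whose difference turned sign or moved when 1 array was left out, that value is given beside it. Not every such value is given, so a missing one does not mean a stable difference. Because these are bulk samples, fewer cells of a kind and less RNA per cell cannot be told apart.

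Most members had lower signal in T173I than in wild type, unevenly across genes and arrays, and none passed the test over all genes. The difference between groups, T173I minus wild type, was negative for 28 of the 37 tested members, where 52.6% of all tested genes had a negative difference. The median difference was -0.30 log2 units over the 37 and -0.26 over all 39 measured, and -0.011 over all genes tested. The largest differences were those of Rtp4 (-1.33), Gbp7 (-1.32) and Ifit1 (-1.27), and at the other end stood Eif2ak2 (0.36), Oasl1 (0.34) and Isg20 (0.28). In limma's test with Benjamini-Hochberg adjustment over 13308 genes, 0 members had an adjusted p under 0.05, as did 0% of all genes. At an unadjusted p under 0.05, 9 of 37 members were lower, against a background of 5.31% of genes, and 2 were higher, against 4.88%. A difference of at least 1.5-fold downwards was seen in 8 members, against 2.16% of genes, and upwards in 0, against 1.88%. The 3 T173I arrays lay below all wild-type arrays in 4 members (Oasl2, Trim25, Parp14 and Gbp7), 10.8% of members against a background of 7.94%, and above them in 3 (Dhx58, Eif2ak2 and Isg20), 8.11% against 7.23%; both shares are near the background. The list was drawn up with the downward direction of interferon genes in these data known, so its counts are no independent evidence of that direction.

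**Figure D1:**
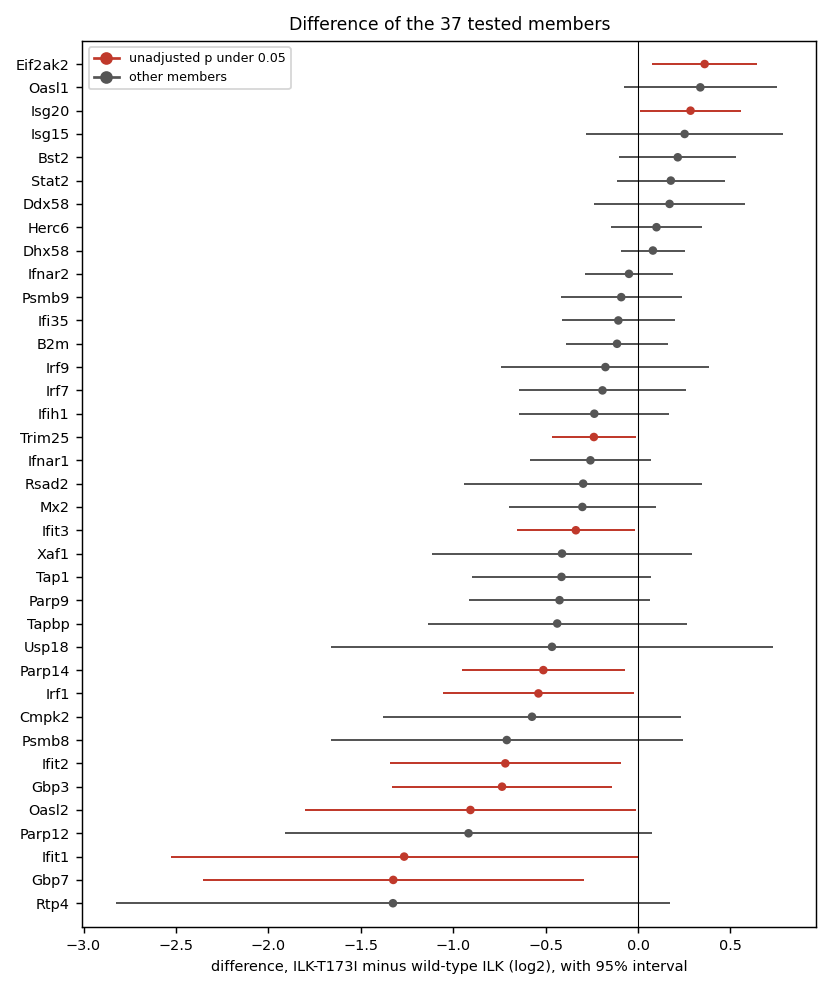
Difference between ILK-T173I and wild-type ILK (log2, x axis) for the 37 tested members, with the 95% interval of the limma fit as a line; red marks an unadjusted p under 0.05. The points run from -1.33 for Rtp4 to 0.36 for Eif2ak2, and 9 of the 11 red points lie below 0.

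These counts depend on single arrays. Without T173I replicate 2, 2 members (Parp14 and Gbp7) were lower at an unadjusted p under 0.05, against 3.49% of genes, and 4 were higher (Stat2, Eif2ak2, Isg20 and Bst2), against 4.13%; the median difference was then -0.13. Without T173I replicate 1, 16 members were lower at an unadjusted p under 0.05, against 12.3% of genes, and 3 were higher, against 9.83%. Irf1, Ifit2 and Psmb8 then had an adjusted p under 0.05 in limma, 3 of 37 members against 1.17% of genes, all 3 of them lower (0.488% of genes). Without wild-type replicate 1, 0 members were lower or higher at an unadjusted p under 0.05 (2.54% and 2.49% of genes). Without wild-type replicate 3, 0 were lower and 2 were higher (4% and 4.08%).

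The interferon receptors were measured with little spread in wild type. Ifnar1, the receptor chain that binds the kinase Tyk2, was at 10.73, 10.72 and 10.84 on wild-type replicates 1 to 3 and at 10.75, 10.25 and 10.52 on the T173I arrays. Replicates 2 and 3 of T173I lay below the wild-type arrays and replicate 1 among them, and the difference was -0.26 with a 95% interval of -0.58 to 0.070 (-0.13 without T173I replicate 2). Ifnar2, the other chain, was at 10.60 to 10.63 on the wild-type arrays and at 10.73, 10.40 and 10.57 on the T173I arrays, a difference of -0.049 with an interval of -0.29 to 0.19. It was -0.13 without T173I replicate 1 and 0.033 without replicate 2.

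The cytosolic RNA sensors had differences in both directions. Ifih1, which encodes the long-RNA sensor MDA5, was at 8.39, 8.03 and 8.14 in wild type and at 7.93, 7.67 and 8.25 in T173I. The groups overlap because T173I replicate 3 lay inside the wild-type range, and the difference was -0.24 (95% interval -0.64 to 0.17), or -0.096 without T173I replicate 2. Ddx58, which encodes RIG-I, was at 7.501 to 7.599 in wild type and at 7.59, 7.49 and 8.13 in T173I, so that only replicate 3 of T173I stood above the wild-type range. The difference of 0.17 was 0.29 without T173I replicate 2 and -0.026 without replicate 3. Dhx58, which encodes LGP2, a regulator of the other sensors, was at 5.89 to 5.96 and 6.01, 5.99 and 6.05; the groups did not overlap, and the difference was 0.081 (unadjusted p = 0.31 in limma).

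Of the 4 transcription factors, 3 had negative differences and 1, Irf1, was lower at an unadjusted p under 0.05. Irf1, which drives MHC class I genes, was at 7.42, 7.29 and 7.44 in wild type and at 7.37, 6.59 and 6.59 in T173I. Replicates 2 and 3 of T173I lay below all wild-type arrays, and replicate 1 was inside their range. The difference over all 6 arrays was -0.54 (95% interval -1.06 to -0.021, unadjusted p = 0.044, adjusted p = 0.49 in limma), and without T173I replicate 1 it was -0.80 (adjusted p = 0.029). It was -0.41 without T173I replicate 2 and also -0.41 without replicate 3. Stat2 was at 8.06 on all 3 wild-type arrays, exactly equal in the deposited values, and at 8.24, 8.02 and 8.46 in T173I. It had a difference of 0.18 with an interval of -0.11 to 0.47, and 0.29 without T173I replicate 2. Irf9, its partner, was at 8.26, 7.76 and 7.78 in wild type and 7.96, 7.28 and 8.03 in T173I. Irf7, which amplifies interferon production, was at 7.23, 7.04 and 7.10 and at 7.06, 6.51 and 7.23. In Irf7 and Irf9 T173I replicate 2 was the only array below the wild-type range, with differences of -0.19 and -0.18. Without that array both were positive, 0.021 for Irf7 and 0.062 for Irf9. Irf9 was at -0.28 without T173I replicate 1 and at -0.014 without wild-type replicate 1.

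The antiviral effectors held the widest range. Of 14 tested, 10 had negative and 4 positive differences, 4 were lower and 2 higher at an unadjusted p under 0.05, and 0 passed the adjustment. Over all tested genes 52.6% had negative differences, and 5.31% were lower and 4.88% higher at that p. Ifit1, which binds viral RNA that lacks a methylated cap, was at 9.80, 8.55 and 9.45 in wild type and at 8.56, 6.88 and 8.56 in T173I. T173I replicates 1 and 3 had equal values (8.5588) at the level of wild-type replicate 2, and only T173I replicate 2 lay below it. The difference of -1.27 was 2.40-fold (95% interval -2.53 to -0.0014, unadjusted p = 0.0498, adjusted p = 0.49 in limma). Its value was -0.70 without T173I replicate 2. Rtp4, a receptor-transporting protein with antiviral activity, had T173I replicate 2 further below the rest, at 9.66, 8.49 and 9.08 in wild type and at 8.61, 6.31 and 8.33 in T173I. Its difference was 2.51-fold, with an interval of -2.83 to 0.17 that includes 0, and it was -0.60 without T173I replicate 2.

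Oasl2, an oligoadenylate synthetase-like enzyme, was at 7.33, 6.67 and 7.01 in wild type and at 6.43, 5.24 and 6.62 in T173I, so that the groups did not overlap. Its difference of -0.91 had an interval of -1.80 to -0.013 (adjusted p = 0.49 in limma) and was -0.48 without T173I replicate 2. Oasl1, the neighbouring gene and a relative without enzyme activity that restrains Irf7 translation, had a difference of opposite sign, at 5.99, 5.70 and 6.08 and at 5.93, 6.42 and 6.44. Its 0.34 had an interval of -0.075 to 0.75, and T173I replicate 1 lay inside the wild-type range.

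Ifit2, an RNA-binding relative of Ifit1, was at 8.68, 8.53 and 8.78 in wild type and at 8.57, 7.56 and 7.70 in T173I. Here T173I replicates 2 and 3 were alike and low while replicate 1 was inside the wild-type range. The difference was -0.72 (95% interval -1.34 to -0.094, adjusted p = 0.48 in limma), and -1.03 without T173I replicate 1 (adjusted p = 0.027). It was -0.53 without T173I replicate 2 and -0.60 without replicate 3. Ifit3, the partner that steadies Ifit1, was at 7.56, 7.39 and 7.81 and at 7.42, 7.13 and 7.21, a difference of -0.34.

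Eif2ak2 and Isg20 stood on the other side. Eif2ak2, which encodes PKR, the kinase that halts translation on double-stranded RNA, was at 8.85, 8.9997 and 9.20 in wild type and at 9.34, 9.27 and 9.51 in T173I. Isg20, an RNA exonuclease, was at 8.62, 8.74 and 8.84 and at 8.89, 8.94 and 9.21. In both genes every T173I array lay above every wild-type array, with differences of 0.36 (95% interval 0.078 to 0.64) and 0.28 (0.012 to 0.56) and adjusted p of 0.45 and 0.49 in limma. Bst2, or tetherin, which holds budding virus at the cell surface, was at 9.84, 9.60 and 9.75 and at 10.03, 9.69 and 10.11. Its difference was 0.22, or 0.34 without T173I replicate 2 and 0.13 without T173I replicate 3.

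The remaining effectors had negative differences, none at an unadjusted p under 0.05. Cmpk2, a mitochondrial nucleotide kinase, had a difference of -0.57 and Xaf1, a partner of the apoptosis inhibitor XIAP, one of -0.41; T173I replicate 2 was the lowest array in each, at 6.55 and 6.25. Without it the differences were -0.22 for Cmpk2 and -0.077 for Xaf1, and without T173I replicate 1 Xaf1 was at -0.63. Rsad2, or viperin, an enzyme that makes a chain-ending nucleotide, had a difference of -0.30 and a wider spread in wild type (SD 0.57) than in T173I (SD 0.10); it was -0.014 without wild-type replicate 1. Mx2, an antiviral GTPase close to the filter, had a difference of -0.30 and Ifi35, a partner of Nmi, one of -0.11 (-0.047 without T173I replicate 2). Without wild-type replicate 1 Mx2 was at -0.14 and Ifi35 at 0.016.

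The ISG15 system, in which the ubiquitin-like protein Isg15 is attached to other proteins, had members in both directions. Isg15 was at 8.39, 7.72 and 8.07 in wild type and at 8.24, 8.03 and 8.68 in T173I. The groups overlapped and the difference was 0.25 (95% interval -0.28 to 0.78). It was 0.40 without T173I replicate 2, 0.072 without T173I replicate 3 and 0.082 without wild-type replicate 2. Usp18, the protease that removes Isg15 and restrains the receptor, was at 8.27, 6.65 and 7.09 and at 7.13, 6.06 and 7.43. Wild-type replicate 1 and T173I replicate 2 stood apart in Usp18, and its difference of -0.47 was 0.0003 without the first of these arrays and -0.061 without the second. Herc6, the mouse ligase for Isg15, had a difference of 0.10 (0.012 without wild-type replicate 2). Trim25, a ubiquitin ligase of the RIG-I pathway, was at 9.52, 9.42 and 9.47 and at 9.32, 9.07 and 9.30, with every T173I array lower by a small margin. Its difference of -0.24 had an interval of -0.47 to -0.011.

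The 3 measured genes for ADP-ribosyl transferases had negative differences, 1 of them at an unadjusted p under 0.05. Parp14 was at 7.499, 7.15 and 7.35 in wild type and at 7.05, 6.43 and 6.97 in T173I, with no overlap (difference -0.51, 95% interval -0.95 to -0.073, adjusted p = 0.47 in limma), and its difference was -0.32 without T173I replicate 2. Parp12 was at 10.33, 9.77 and 10.05 and at 9.83, 8.16 and 9.40, a difference of -0.92 that was -0.43 without T173I replicate 2. Parp9, which works in a complex with the ubiquitin ligase Dtx3l, was at 8.71, 8.49 and 8.43 and at 8.48, 7.68 and 8.19, a difference of -0.42 (-0.21 without T173I replicate 2). A probe set shared by Dtx3l and Parp9 was at 9.11, 8.95 and 8.96 and at 8.999, 8.44 and 8.72, a difference of -0.29 that cannot be assigned to either gene.

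The guanylate-binding proteins, GTPases that attack the vacuoles of intracellular pathogens, had the lowest median difference of the role groups, -1.03 over 2 tested genes. Gbp7 was at 8.73, 7.56 and 8.36 in wild type and at 7.35, 6.05 and 7.28 in T173I. All T173I arrays lay below all wild-type arrays, and the difference of -1.32 was 2.50-fold (95% interval -2.35 to -0.29, unadjusted p = 0.019, adjusted p = 0.45 in limma). It was -0.90 without T173I replicate 2. Gbp3 was at 6.49, 5.73 and 6.14 and at 5.25, 5.10 and 5.81, where T173I replicates 1 and 2 were low and replicate 3 overlapped wild-type replicate 2. Its difference was -0.74 (95% interval -1.33 to -0.14). A probe set shared by Gbp2 and Gbp2b was at 7.59, 6.83 and 7.93 and at 6.84, 5.62 and 6.32, a difference of -1.19 with T173I replicate 1 at the level of wild-type replicate 2.

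**Figure D2:**
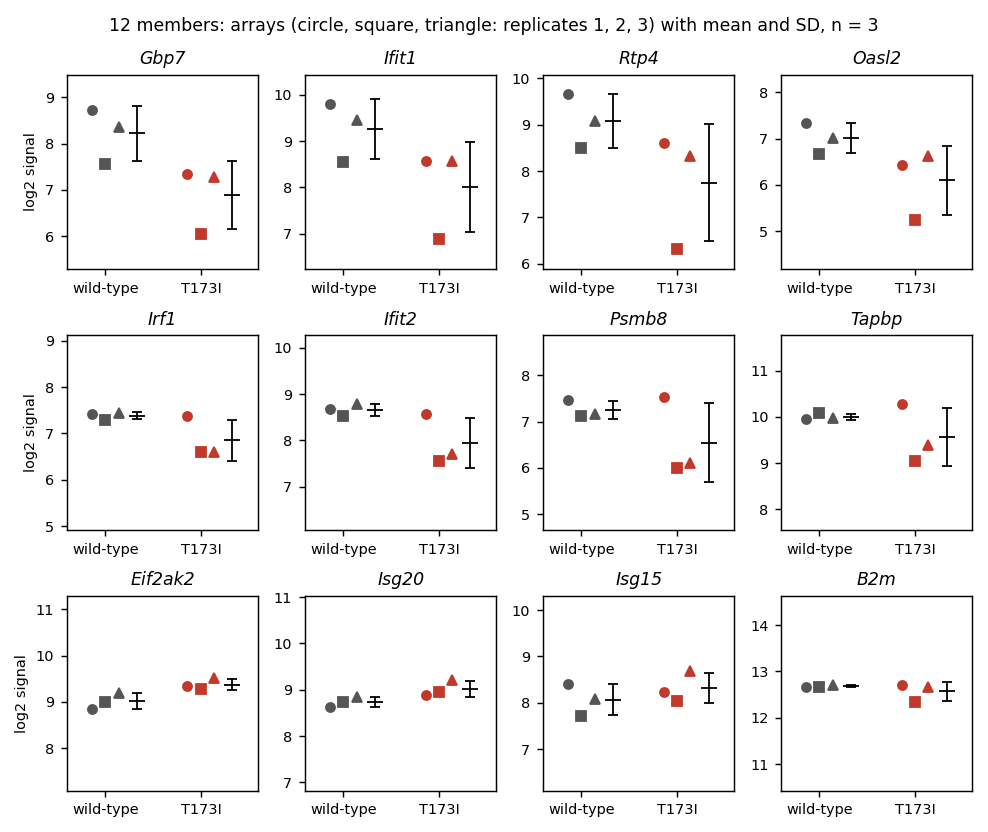
Log2 signal (y axis, each panel spanning the same number of log2 units) of 12 members on each array, with the mean and SD of the 3 arrays of a group beside the points. In Gbp7, Ifit1, Rtp4 and Oasl2 the square of T173I replicate 2 is the lowest point, in Irf1, Ifit2, Psmb8 and Tapbp T173I replicate 1 lies with or above the wild-type arrays while replicates 2 and 3 lie below them, and in Eif2ak2 and Isg20 the T173I arrays lie above the wild-type arrays.

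In the antigen presentation genes other than B2m, T173I replicate 1 lay inside or above the wild-type range and replicates 2 and 3 lay below it. All 5 tested genes had negative differences, and 0 had an unadjusted p under 0.05. Psmb8, a catalytic subunit of the immunoproteasome, was at 7.48, 7.13 and 7.16 in wild type and at 7.53, 5.998 and 6.11 in T173I. The difference was -0.71 over all 6 arrays (95% interval -1.66 to 0.24) and -1.20 without T173I replicate 1 (adjusted p = 0.029 in limma); it was -0.44 without T173I replicate 2. Tapbp, or tapasin, which holds MHC class I near the peptide transporter, was at 9.96, 10.08 and 9.98 and at 10.27, 9.05 and 9.39. Its difference was -0.44 over all arrays -0.79 without T173I replicate 1 (adjusted p = 0.057 in limma) and -0.18 without replicate 2; its dimmer probe set had a difference of 0.12, so the probe sets of Tapbp disagree in sign. Tap1, a chain of the peptide transporter, was at 7.13, 6.90 and 6.82 and at 6.97, 6.20 and 6.44, a difference of -0.41. It was -0.63 without T173I replicate 1 and -0.25 without replicate 2.

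Psmb9, the other immunoproteasome subunit among the members, was at 5.49, 5.40 and 5.44 and at 5.64, 5.14 and 5.28, a difference of -0.091. It was -0.23 without T173I replicate 1 and 0.016 without replicate 2. Tap2, the partner of Tap1 and below the filter, was at 5.48 on all 3 wild-type arrays, with exactly equal values, and at 5.67, 5.06 and 5.00. B2m, the constant chain of MHC class I, was at 12.68, 12.66 and 12.71 and at 12.70, 12.33 and 12.67. Only T173I replicate 2 was outside the wild-type range of B2m, and the difference of -0.11 was 0.0047 without that array and -0.18 without T173I replicate 1.

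**Figure D3:**
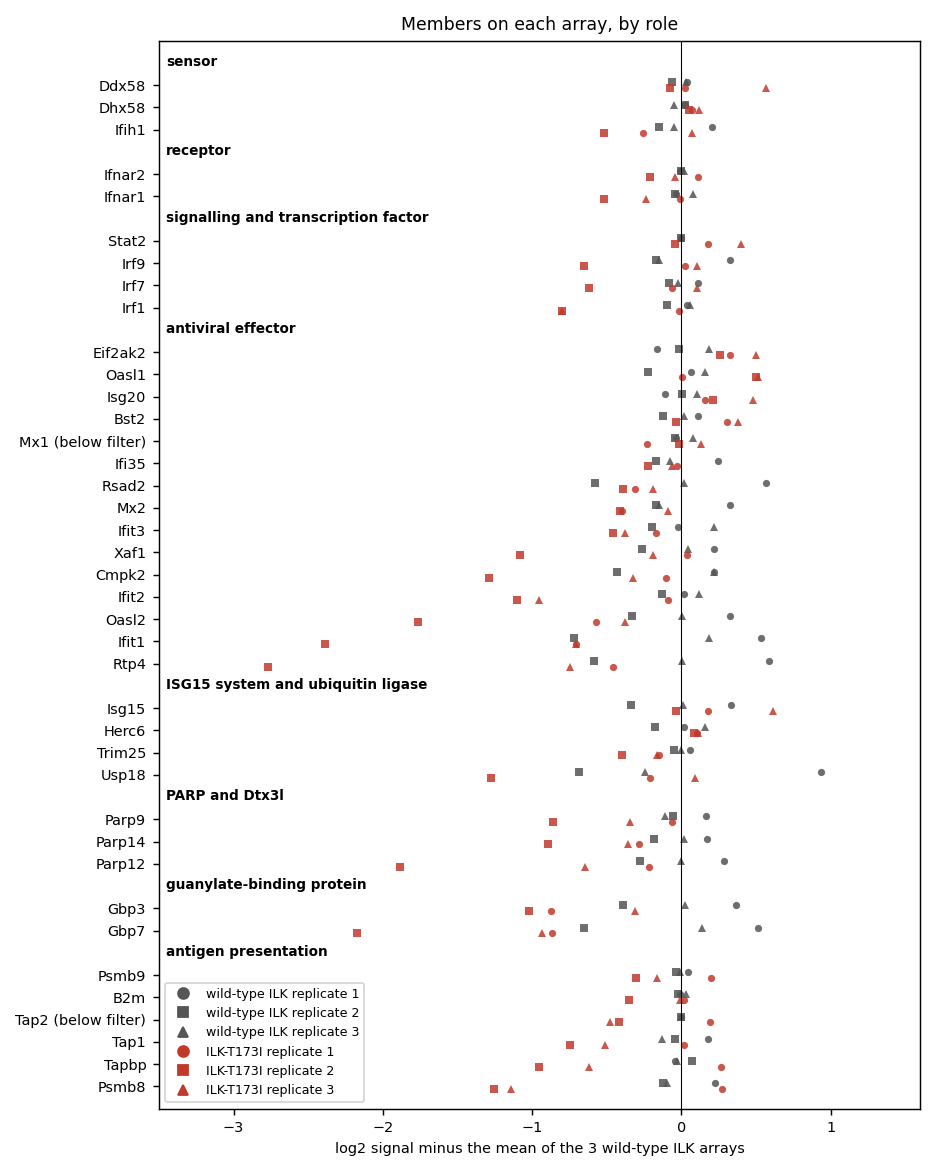
Log2 signal of the 39 measured members on each array minus the mean of the 3 wild-type arrays (x axis), grouped by role; grey marks are wild-type ILK arrays and red marks ILK-T173I arrays, with a circle, square and triangle for replicates 1, 2 and 3. The red square of T173I replicate 2 is the lowest mark in 29 of the 37 tested members, down to -2.77 for Rtp4.

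The level of the members differed between arrays of the same group as well as between the groups. The mean over the 37 tested members, relative to the wild-type mean, was lowest for T173I replicate 2 (-0.71), with replicate 3 at -0.17 and replicate 1 at -0.097. Wild-type replicates 1 to 3 were at 0.18, -0.20 and 0.019. T173I replicates 1 and 3 thus lay within the range of the wild-type arrays, and replicate 2 outside it. T173I replicate 2 was below every wild-type array in 29 of 37 members, where it was so in 39.8% of all tested genes. T173I replicate 3 was below every wild-type array in 16 members (43.2%), against 33.8% of genes, and T173I replicate 1 in 7 (18.9%), against 24.8%, so that these shares lie nearer to the background. The same arrays were above every wild-type array in 4, 8 and 9 members for replicates 2, 3 and 1, against 31.2%, 29.7% and 29.1% of genes. T173I replicate 3 was the highest of the 6 arrays in 8 members (Ddx58, Dhx58, Stat2, Oasl1, Eif2ak2, Isg20, Bst2 and Isg15), against 15.8% of genes.

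The wild-type arrays also differed among themselves in these genes. Wild-type replicate 1 was the highest of the 6 arrays in 19 of 37 members, against 17.9% of genes. It was above both other wild-type arrays in 24, against 33.6%, and wild-type replicate 2 was below both other wild-type arrays in 29, against 26.7%. T173I replicate 2 was below both other T173I arrays in 35 members, against 40.1%. The median SD of a member was 0.18 in wild type and 0.34 in T173I, where all tested genes had 0.098 and 0.16. Several members with a large step between wild-type arrays also had one between T173I arrays, Rsad2 being an exception (1.14 and 0.20). The step from wild-type replicate 2 to replicate 1 was 1.25 in Ifit1, 1.17 in Rtp4, 1.17 in Gbp7 and 1.62 in Usp18, and the step from T173I replicate 2 to replicate 3 was 1.68, 2.02, 1.24 and 1.36 in the same genes. Irf1 and Psmb8 had steps of 0.13 and 0.35 in wild type and of 0.0001 and 0.11 between those T173I arrays. Over the 37 members, Pearson's r between these steps was 0.735, and over all 13308 tested genes 0.151. The pair of steps was picked after the values were seen, from 9 such pairs in which the size of r ran from 0.111 to 0.735 over the members; the 2 steps share no array, genes are not independent replicates, and r is given as a description.

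**Figure D4:**
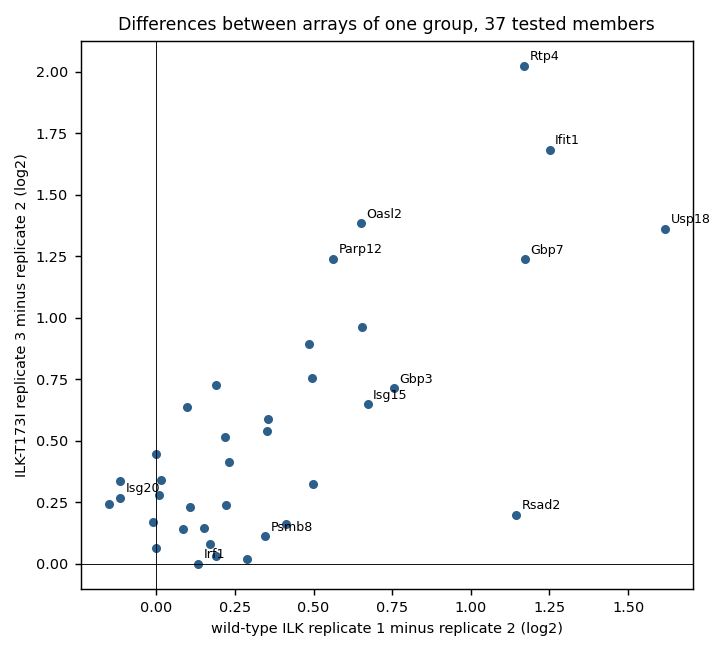
Step between 2 arrays of wild-type ILK (replicate 1 minus replicate 2, x axis, log2) against the step between 2 arrays of ILK-T173I (replicate 3 minus replicate 2, y axis, log2), with 1 point for each of the 37 tested members. Rtp4, Ifit1, Gbp7 and Usp18 lie at the upper right, Rsad2 has a large step only in wild type, and Irf1 and Psmb8 lie near the lower left.

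Neighbouring members did not all have differences of 1 sign. Ifit2 and Ifit3 are adjacent protein-coding genes, as are Gbp7 and Gbp3, Rsad2 and Cmpk2, and Psmb9, Tap1, Psmb8 and Tap2 in a row, and within each of these the differences had 1 sign. Oasl2 and Oasl1 are adjacent too and had -0.91 and 0.34. The promoter elements did not divide the tested members with a window by direction either. Tested members without a window (Rtp4, Usp18, Parp9, Parp14, Mx2 and Dhx58) are not in these counts. The 12 tested members with an ISRE match had 7 negative and 5 positive differences with a median of -0.17, and the 19 with a window and no match had 16 negative and 3 positive ones with a median of -0.26. Isg15 and Bst2, whose ISRE matches are printed above, had differences of 0.25 and 0.22, and Ifit1 and Gbp7 had -1.27 and -1.32. For GAS the medians were -0.18 with a match (10 members) and -0.24 without (21 members).

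Other genes of the pathway were read from lists beside the members. The shares over all tested genes to set beside these counts are 5.31% lower and 4.88% higher at an unadjusted p under 0.05, and 52.6% with a negative difference. Of 6 interferon genes measured, Ifnb1, Ifng, Ifne and Ifnk lay below the filter. Ifnl2 and Ifnl3 lay above it, with means of 7.68 and 7.03 over the arrays and differences of 0.066 and -0.090. Of 12 tested genes of receptor signalling and its feedback, 2 were lower and 0 higher at an unadjusted p under 0.05, and 0 passed the adjustment. Socs3, a feedback inhibitor of cytokine receptors, was at 7.49, 7.94 and 8.48 in wild type and at 7.45, 6.96 and 6.85 in T173I (difference -0.88, 95% interval -1.54 to -0.22). Ifngr2, a chain of the interferon gamma receptor, was at 11.14, 11.01 and 10.88 and at 10.89, 10.52 and 10.73 (difference -0.29). Of 13 nucleic acid sensing genes 1 was lower and 0 higher: Cgas, the cytosolic DNA sensor, at 8.98, 8.85 and 8.85 and at 8.67, 8.69 and 8.51, with no overlap. Sting1, its adaptor, was at 10.49, 10.55 and 10.75 and at 10.72, 9.31 and 9.90, with the order of T173I arrays seen in Psmb8.

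Among 24 other tested interferon-stimulated genes 20 had negative differences (median -0.27), 2 were lower and 0 higher at an unadjusted p under 0.05, and 0 passed the adjustment. These 2 were Ccl5, a chemokine for T cells, at 7.80, 7.16 and 7.30 and at 6.61, 6.45 and 7.09, and Nmi, the partner of Ifi35, with a difference of -0.63. Cxcl10, another chemokine of the interferon response, had a different order of arrays, at 10.16, 9.15 and 9.49 and at 7.73, 9.36 and 8.59, with T173I replicate 1 lowest (difference -1.04, 95% interval -2.08 to 0.0097). Of 13 other tested MHC class I and peptide loading genes 11 had negative differences (median -0.15), and 2 were lower at an unadjusted p under 0.05. Erap1, which trims peptides in the endoplasmic reticulum, was at 8.41, 7.80 and 8.18 and at 7.74, 6.66 and 7.35, and H2-Q4, a non-classical class I gene, had a difference of -0.84. The 2 positive differences were those of H2-K1 (0.0048), a class I gene with a mean of 10.13 over the arrays, and Psme2 (0.039). H2 genes are near-identical copies, and their probe sets may read more than 1 of them. The 5 tested MHC class II genes had 4 negative differences with a median of -0.047, and 0 were lower or higher at an unadjusted p under 0.05.

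Markers of other cell types were read beside these results. Of 15 collecting duct epithelial markers 14 passed the filter, Aqp3 being the exception, and Krt8, Krt18 and Krt19 were higher in T173I while Gata3 was lower at an unadjusted p under 0.05. Of 13 measured leukocyte markers 5 passed the filter; Ptprc, which encodes the pan-leukocyte protein CD45, lay at 3.69 and below it, as did Itgam, Adgre1, Cd3e, Ms4a1, Lyz2, Laptm5 and Fcer1g. At an unadjusted p under 0.05 3 leukocyte markers were lower (Cd14, Csf1r and Tyrobp) and 1 was higher (Cd68), and 0 passed the adjustment. Of all tested genes 5.31% were lower and 4.88% higher at that p, shares to set beside both marker lists. Tyrobp, at a mean of 5.38 over the arrays, lay close to the filter. The mean level of the leukocyte list was 5.41 to 5.55 on the wild-type arrays and 5.30 to 5.45 on the T173I arrays. Cd14, a co-receptor for bacterial lipopolysaccharide, was at 8.45, 8.07 and 8.49 and at 7.69, 6.08 and 7.14, and Cd68, a lysosomal protein, was at 7.47, 8.08 and 8.26 and at 8.40, 9.08 and 9.63. None of 8 endothelial markers and 3 of 8 fibroblast markers passed the filter. The part of any of these genes in the differences of the members was not tested.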

How the data were processed

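Each of the 6 RNA samples was labelled with an Affymetrix kit and read on 1 array. Values were deposited on a log2 scale; per the submitters' processing notes, RMA was used. That method corrects background, equalises arrays and summarises probes, so a shift of most genes in 1 direction would not be seen. The sources used here give no version of it. Arrays have no read depth, and their number limits the precision. Of 41345 probe sets, 23521 have 1 symbol in the platform annotation, for 22180 genes. Genes among the lowest 40% by mean were left out, and 13308 were fitted with limma (version 3.58.1, R 4.3.3; lmFit, eBayes, no covariate, two-sided, Benjamini-Hochberg threshold 0.05). The scripts were tested on simulated data. Values on each array are given for members with an unadjusted p under 0.05 and, in each role, for the member with the highest mean and that with the largest difference; other values were chosen after they were seen. Of each further list, up to 4 genes with the smallest p could be named. H2-K1 and Psme2 were named beyond these, for their positive differences. The members and lists were chosen with earlier results of these data known. Alternatives covered the filter, the eBayes prior, normalization, how a gene's probe sets were combined, weights per array, replicate number as a block, and leaving out each array. Stretches of sequence are from RefSeq, GRCm38.p6.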

Additional observations from a re-analysis of the deposited data

How the results depend on the processing

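All values named here concern T173I against wild type. The count of members lower at an unadjusted p under 0.05, 9 in the fit as reported, ran from 0 to 16 when 1 array was left out (16 without T173I replicate 1, when 12.3% of all genes were), and the count of higher members, 2, from 0 (without wild-type replicate 1 or 2 or T173I replicate 3) to 4; the latter was 1 after repeated quantile normalization (4.67% of all genes) and 7 with array weights (10.3%). Genes past the adjusted threshold numbered 0 to 156 over all genes and 0 to 3 among the members, above 0 only without T173I replicate 1, when Ifit2 (-1.03), Irf1 (-0.80) and Psmb8 (-1.20) passed. Members whose T173I arrays all lay below the wild-type arrays numbered 4 to 16 over left-out arrays: 14 without wild-type replicate 2 (11.5% of all genes), 16 without T173I replicate 1 (22.1%) and 7 without T173I replicate 3 (12.4%). Those above numbered 3 to 5 over left-out arrays, where 10.3% to 17.5% of all genes lay above. With a stricter filter, which tests 30 members, these counts were 3 below (8.62% of all genes) and 2 above (8.07%). After repeated quantile normalization they were 4 (8.89%) and 2 (7.45%). Over left-out arrays the median difference stayed negative, from -0.39 to -0.13, as did the mean level on T173I replicate 1 (-0.20 to -0.0049), replicate 2 (-0.82 to -0.62) and replicate 3 (-0.27 to -0.078). Among all 37 members, signs turned for 5 without T173I replicate 2 (Ifnar2, Irf7, Irf9, Psmb9 and B2m), 3 with array weights (Irf7, Irf9 and Usp18), 2 without wild-type replicate 1 (Ifi35 and Usp18) and 1 without T173I replicate 3 (Ddx58), and for 0 under the other alternatives. Usp18 was positive with array weights (0.038) or without wild-type replicate 1 (0.0003; range over left-out arrays -0.8083 to 0.0003), as was B2m without T173I replicate 2 (0.0047; range -0.1799 to 0.0047); the cause was not tested. Over all tested genes, same-numbered arrays deviated together little (r = 0.0488, 0.0667 and 0.0477), so the numbers were not taken as pairs. Steps between same-numbered arrays had r of 0.483 (replicates 1 and 2), -0.111 (1 and 3) and 0.6 (2 and 3) over the 37 members. Over all tested genes these were 0.06, 0.043 and 0.058. Whether the arrays are paired in the members was not tested. With the replicate block 15 members were lower at an unadjusted p under 0.05, against 6% of all genes, and 0 passed the adjustment. Signal close to background limits what Gbp3, Mx1, Mx2, Psmb9 and Tap2 can show.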

Other observations

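The value of a probe set shared by several genes cannot be assigned to any single gene. The probe set listed for Oas1a and Oas1g was at 5.83, 5.51 and 5.38 in wild type and at 5.70, 5.44 and 5.75 in T173I. The one listed for Parp10 and Plec was at 8.58, 8.47 and 8.39 in wild type and at 8.34, 7.68 and 7.92 in T173I, with no overlap between the groups. The one that lists Psme2, a proteasome activator subunit, with 2 other genes was at 6.60, 6.72 and 7.34 and at 6.95, 8.02 and 8.27, a difference of 0.86. The brighter of those listed for H2-Q7, H2-Q8 and H2-Q9 was at 10.08, 10.02 and 9.87 and at 10.18, 9.41 and 9.84, and the one listed for H2-T22 and H2-T9 at 7.23, 7.53 and 7.30 and at 8.07, 7.01 and 7.53. In these H2 probe sets T173I replicate 1 was the highest and replicate 2 the lowest of the 6 arrays, as in Psmb8 and Tapbp.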
